A study of Mus musculus with 6 samples.

Results

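The 10 genes described here encode Ras-like small GTPases outside the classical Ras, Rap and Ral proteins: Diras1 and Diras2, Rerg, Rasl10a and Rasl10b, Rasl11a and Rasl11b, Rasl12, and Rasd1 and Rasd2. They were chosen by name, with earlier results of these data known. Each has a probe set annotated with its symbol alone, and all 10 were among the 22180 genes tested. Diras2 is the gene the study targeted. The cells were primary cultures from hippocampi of mouse embryos at prenatal day 18, infected 7 days after seeding with AAV1/2, a recombinant adeno-associated viral vector, and taken for RNA 7 days after infection. In 3 samples the vector carried a Diras2 knockdown and in 3 control samples a scrambled sequence, so every sample carried a vector. Strain, number of embryos and the promoter and sequence of the knockdown construct are not given in the sources used here. The design asks what lowering Diras2 does to gene expression, and 1 knockdown construct cannot separate the loss of Diras2 from other effects of that construct. Each sample was read on 1 array, as a log2 expression level per probe set. Precision is limited by how few arrays there are. The labels call the samples biological replicates but name no separate cultures or litters, so p-values measure only the spread between these samples, which may be technical.

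Small GTPases of the Ras family are molecular switches that signal to effector proteins while bound to GTP and are turned off by hydrolysis of GTP to GDP. The Diras proteins are found mainly in neurons and stay largely in the GTP-bound state, and Diras1 has been described as a restraint on growth. Rerg is an oestrogen-regulated growth inhibitor. Rasd1, also known as Dexras1, is induced by glucocorticoids and couples neuronal nitric oxide synthase to its targets, and Rasd2, also known as Rhes, is best known from the striatum. Many proteins of the wider Ras family are anchored to membranes by a lipid that farnesyl or geranylgeranyl transferase attaches to a carboxy-terminal CAAX box.

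The sequence just upstream of the start site is shown for the 3 genes of the family that fell, because these genes changed in the same direction and their upstream sequences differ in composition. The windows are the 250 bases before the start in RefSeq on GRCm38.p6, written 5′ to 3′ on the strand of the gene, with capitals on either strand marking GC boxes (GGGCGG), E-boxes (CACGTG) and the CCAAT box, which is spelled as named.
Diras2 (chr13:52530837-52531086, minus strand): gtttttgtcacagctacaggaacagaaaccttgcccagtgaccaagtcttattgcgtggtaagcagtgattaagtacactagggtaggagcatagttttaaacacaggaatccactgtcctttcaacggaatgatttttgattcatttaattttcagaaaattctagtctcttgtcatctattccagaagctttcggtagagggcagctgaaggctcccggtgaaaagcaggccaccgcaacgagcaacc
Diras1 (chr10:81025378-81025627, minus strand): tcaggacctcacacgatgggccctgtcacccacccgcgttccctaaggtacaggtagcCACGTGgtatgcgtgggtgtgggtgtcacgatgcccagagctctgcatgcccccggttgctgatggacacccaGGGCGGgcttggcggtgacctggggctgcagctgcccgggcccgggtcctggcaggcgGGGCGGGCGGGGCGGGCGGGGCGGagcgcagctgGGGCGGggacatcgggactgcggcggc
Rasl11b (chr5:74195076-74195325, plus strand): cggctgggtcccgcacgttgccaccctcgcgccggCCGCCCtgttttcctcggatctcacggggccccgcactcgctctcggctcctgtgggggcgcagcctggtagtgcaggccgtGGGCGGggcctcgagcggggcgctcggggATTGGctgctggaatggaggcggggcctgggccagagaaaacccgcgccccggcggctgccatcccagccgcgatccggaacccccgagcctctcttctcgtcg

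The Diras2 window had a GC content of 44.0% and 6 CpG dinucleotides, and held none of the motifs. The Diras1 window had a GC content of 72.8% with 22 CpG dinucleotides, 7 GC boxes counted with overlaps, and 1 E-box. That of Rasl11b had 74.0% with 30 CpG dinucleotides, 2 GC boxes and 1 CCAAT box. Among 32841 such windows the median GC content was 52.4% and the median number of CpG dinucleotides 6. A GC box was present in 32.7% of the windows, a CCAAT box in 33.9% and an E-box in 6.02%. The TATA box (TATAAA), present in 12.4%, and the cyclic AMP response element (TGACGTCA), present in 1.55%, were in none of the 7 windows found for the family. Genes that did not pass the test shared these features. Rasl10a had a GC content of 72.4% with 29 CpG dinucleotides and 4 GC boxes, and Rasd2 75.2% with 27 and 0. Rasl11a had 63.6% with 15 CpG dinucleotides, 2 GC boxes and 1 CCAAT box, and Rasl12 59.2% with 8 and 1 GC box. Rerg, Rasl10b and Rasd1 were not matched to a window. A match of letters describes the sequence and says nothing about binding.

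Lowering Diras2 was accompanied by lower expression of 2 other genes of the family, Diras1 and Rasl11b. Of the 10 genes, 3 fell, 0 rose and 7 showed no call in the test. The test was unpaired limma with Benjamini-Hochberg adjustment over all genes and a threshold of 0.05 on the adjusted p. At an unadjusted p under 0.05 there were 4. Across all genes tested, 7.80% passed, 4.17% upwards and 3.64% downwards. The share passing in either direction was 3.37% without knockdown replicate 2, 3.88% without knockdown replicate 3, 3.11% without control replicate 2. It was 3.42% once RNA integrity entered the model. It reached 11.7% with the replicate block, 12.2% with array weights and 19.6% without dim genes. Diras2 itself was the target of the construct, so its fall checks the labels. The median log2 difference of the 10 genes was 0.04, with 5 above 0 and 5 below, and the median of all genes tested was 0.00. The groups did not overlap for 4 of the 10 genes, against 25.5% of all genes. These were Diras1, Rasl11b, Rasl10b and Diras2, which counts among them although it was the target. In samples of mixed cells, fewer cells of a type and less RNA per cell cannot be told apart.

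**Figure D1:**
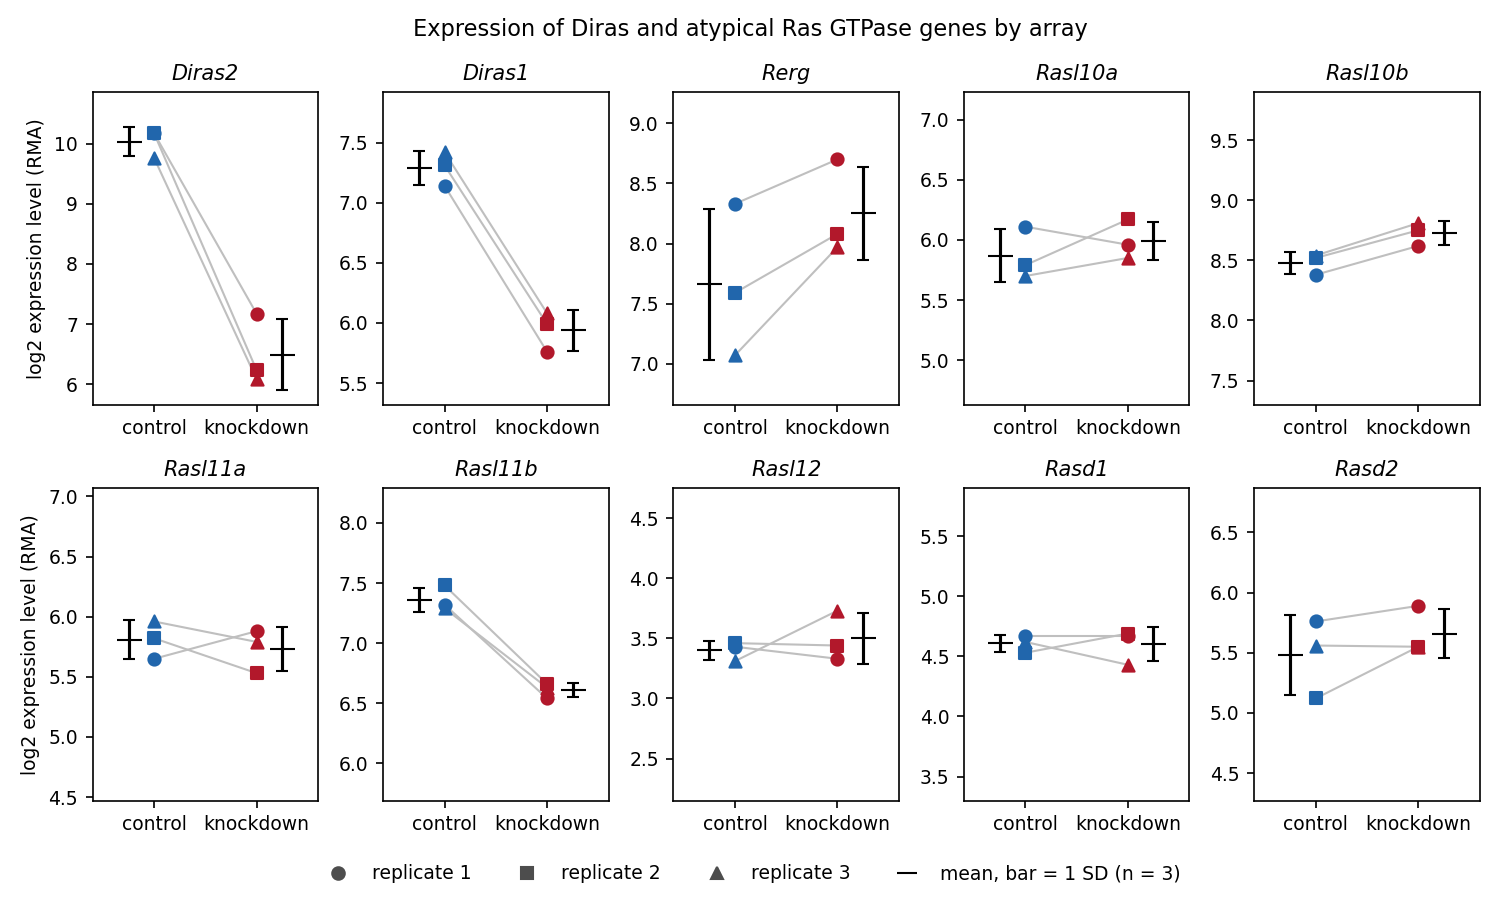
Log2 expression level of each of the 10 genes (y axis, RMA units) in the 3 control and 3 knockdown arrays, with lines joining samples of the same replicate number and black bars giving the mean and 1 SD. All panels span the same range except that of Diras2, which spans a wider one. Diras2, Diras1 and Rasl11b fall along every line, while Rerg and Rasl10b lie higher in the knockdown along every line.

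Diras2, the targeted GTPase, had log2 expression levels of 7.17, 6.23 and 6.08 in knockdown replicates 1, 2 and 3 and of 10.17, 10.17 and 9.76 in control replicates 1, 2 and 3. The groups lay far apart, and knockdown replicate 1 kept the most signal. The mean was 6.49 ± 0.59 against 10.03 ± 0.24 (SD, n = 3 each), a log2 difference of -3.54 (95% interval -4.17 to -2.91) and the largest change of any gene tested, with an adjusted p by limma of 0.00063. On the linear scale the knockdown arrays held 13.7%, 7.16% and 6.46% of the control mean. The difference between samples of the same number was -3.00, -3.94 and -3.68. An exact two-sided permutation test of Diras2 alone gave p = 0.1, the smallest that 3 against 3 arrays allow, and the same value applied to each of the 3 other genes whose groups did not overlap.

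Diras1, the closest relative of Diras2 in the set, had levels of 5.76, 5.99 and 6.08 in the knockdown and 7.14, 7.31 and 7.42 in the control. Its arrays were tightly grouped, and every knockdown array lay more than 1 log2 unit below every control array. The mean fell from 7.29 ± 0.14 to 5.94 ± 0.17 (SD, n = 3), 2.54-fold (95% interval 2.09 to 3.10-fold), with an adjusted p by limma of 0.00105. By size its decrease ranked 56 of 22180 genes. The arrays kept 34.6%, 40.6% and 43.2% of the control mean. Between samples of the same number the difference was -1.38, -1.32 and -1.34, a narrower spread than that of Diras2. Knockdown replicate 1, which kept the most Diras2 signal, had the lowest Diras1 level, and knockdown replicate 3, with the least Diras2 signal, the highest. The controls had the same order of Diras1 by replicate number, so this order cannot be tied to the remaining Diras2 signal. Probe sequences were not used here, and whether Diras2 transcript contributes to the Diras1 signal was not tested.

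Rasl11b had levels of 6.54, 6.66 and 6.63 in the knockdown and 7.32, 7.48 and 7.29 in the control. The groups did not overlap, and each was tight. The mean fell from 7.36 ± 0.10 to 6.61 ± 0.06 (SD, n = 3), 1.69-fold (95% interval 1.44 to 1.98-fold), with an adjusted p by limma of 0.00403. Same-numbered samples differed by -0.78, -0.82 and -0.66. Its paralog Rasl11a, known as a regulator of ribosomal RNA transcription, had levels of 5.88, 5.53 and 5.79 in the knockdown and 5.65, 5.82 and 5.96 in the control. These groups overlapped, and the log2 difference was -0.08 (95% interval -0.38 to 0.22). The intervals of the Rasl11 paralogs did not overlap each other.

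Rerg, the oestrogen-regulated member, had levels of 8.70, 8.08 and 7.97 in the knockdown and 8.33, 7.59 and 7.07 in the control. The groups overlapped, since control replicate 1 was above knockdown replicates 2 and 3, but replicate 1 was the highest and replicate 3 the lowest in both groups. The log2 difference was 0.59 (95% interval -0.14 to 1.31) and did not pass, with an adjusted p by limma of 0.351. Same-numbered samples differed by 0.37, 0.49 and 0.90, each time higher in the knockdown. With the replicate number as a block, Rerg had the same log2 difference of 0.59 with a standard error of 0.13 in place of 0.31 and passed, with an adjusted p of 0.0317. The number of genes of the family that rose was then 1.

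Rasl10b had levels of 8.62, 8.75 and 8.81 in the knockdown and 8.38, 8.52 and 8.54 in the control. The groups were close but did not overlap. The log2 difference was 0.25 (95% interval 0.01 to 0.48), with an unadjusted p by limma of 0.0422 and an adjusted p of 0.216, and same-numbered samples differed by 0.24, 0.23 and 0.27. With the replicate block its adjusted p was 0.146. Its paralog Rasl10a, described as a nucleolar growth inhibitor, had levels of 5.96, 6.17 and 5.85 in the knockdown and 6.11, 5.79 and 5.70 in the control. These overlapped, with a log2 difference of 0.13 (95% interval -0.20 to 0.45).

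**Figure D2:**
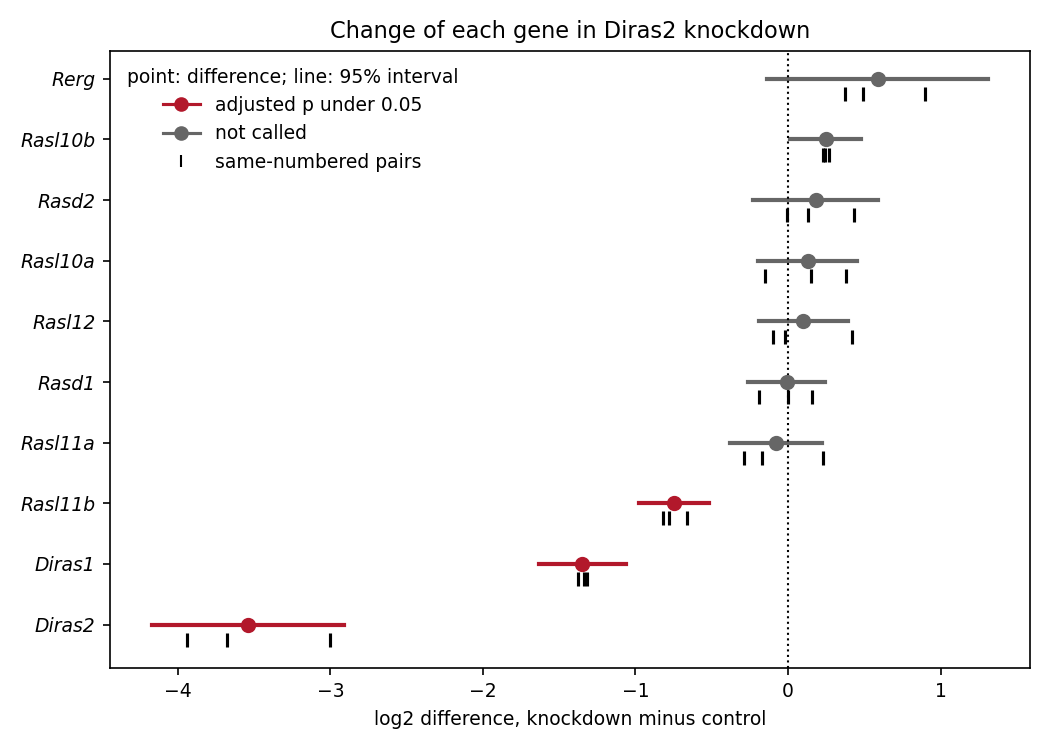
Log2 difference, knockdown minus control (x axis), of each of the 10 genes, with points for the difference, lines for the 95% interval and ticks for the differences between same-numbered samples. Diras2, Diras1 and Rasl11b, in red, passed the test, and the other 7 genes, in grey, had log2 differences from -0.08 to 0.59.

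The glucocorticoid-induced Rasd1 had levels of 4.67, 4.69 and 4.43 in the knockdown and 4.67, 4.53 and 4.62 in the control. The values were nearly identical between the groups, with a log2 difference of -0.01 (95% interval -0.26 to 0.24). Rasd2 had levels of 5.89, 5.55 and 5.55 in the knockdown and 5.76, 5.12 and 5.56 in the control, which overlapped, and a log2 difference of 0.18 (95% interval -0.23 to 0.59). Rasl12 had levels of 3.33, 3.44 and 3.73 in the knockdown and 3.43, 3.46 and 3.31 in the control, with a log2 difference of 0.10 (95% interval -0.19 to 0.39). A further probe set is annotated with both Rasl12 and Slc51b. It read 2.82, 2.31 and 2.63 against 3.17, 3.12 and 2.82, a log2 difference of -0.45, the opposite sign. The mean levels of Rasl12 and Rasd1 over all arrays, 3.45 and 4.60, lay below the 5.06 of the median gene. Detection calls were not used here, and a weak signal pulls a log2 difference towards 0.

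**Figure D3:**
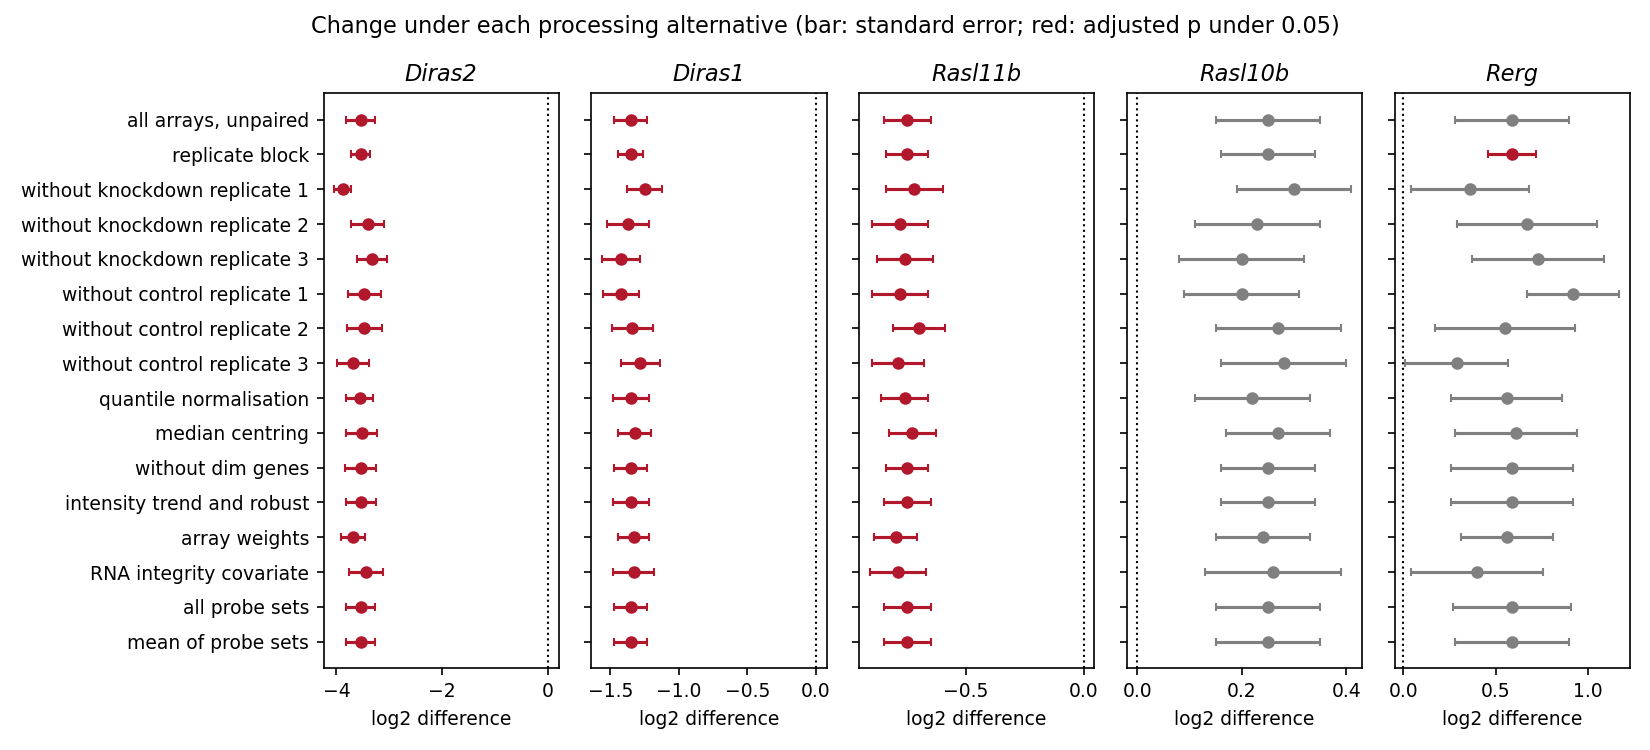
Log2 difference (x axis) of 5 genes under the main fit and 15 processing alternatives (rows), with bars for the standard error and red for an adjusted p under 0.05. Diras2, Diras1 and Rasl11b are red in every row, Rerg only with the replicate block and Rasl10b in none.

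The fall of Diras2, Diras1 and Rasl11b passed under all 15 alternatives. The log2 difference of Diras1 ran from -1.42 to -1.25 with adjusted p-values by limma of 0.000349 to 0.0112. That of Rasl11b ran from -0.80 to -0.70 with adjusted p-values of 0.00144 to 0.0264. Rerg moved with the arrays kept, from 0.29 without control replicate 3 to 0.92 without control replicate 1.

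The genes whose centred values over the 6 arrays lay closest to those of Diras2, by Euclidean distance, were Txnip, an inhibitor of thioredoxin, at 0.95, Siah3 at 1.63, Dap at 1.87, Akr1c18 at 1.88 and AW551984 at 1.99. They had log2 differences of -3.40, -2.46, -2.14, -2.46 and -1.99. Closest to Diras1 were Ch25h, cholesterol 25-hydroxylase, at 0.23, Pwwp3b at 0.28, Bphl at 0.32, Ankrd45 at 0.33 and Elmod2 at 0.33, with log2 differences of -1.30, -1.30, -1.11, -1.27 and -1.29. These distances describe the same 6 arrays and mostly reflect the difference between the groups.

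Among other Ras-family GTPases, 19 of 25 listed genes were measured by a probe set of their own, and the other 6 were not analysed here. Among those 19, 4 were higher and 1 lower by the test and 14 did not pass, where 7.80% of all genes passed. The median log2 difference was 0.01. Nras, a classical Ras protein, had levels of 8.54, 8.30 and 8.19 in the knockdown and 7.17, 7.08 and 7.21 in the control. The log2 difference was 1.19 with an adjusted p by limma of 0.00132. Rap2c, of the Rap branch, had 8.33, 8.45 and 8.44 against 7.58, 7.27 and 7.02, a difference of 1.12. Neither had overlapping groups. Rras2, the R-Ras relative also known as TC21, rose by 0.70 and Rala, a Ral protein of vesicle traffic, by 0.39 on the log2 scale. Rem2, an inhibitor of calcium channels that was named after its values were seen, fell by 0.80. Rala was no longer called when any single array was left out (adjusted p by limma from 0.0691 to 0.142), with quantile normalisation (0.0519) or with RNA integrity as a covariate (0.155). Rras2 lost its call without knockdown replicate 2 (0.0548) or control replicate 2 (0.0562). Rem2 lost it without knockdown replicate 1 (0.109) or 3 (0.135), control replicate 2 (0.149) or 3 (0.0830) or with that covariate (0.109). The list had 3 changed genes without knockdown replicate 1, 2 or 3 or control replicate 3, and 2 without control replicate 2. In that order, 5.7%, 3.37%, 3.88%, 6.01% and 3.11% of all genes passed.

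Among partners described for Diras and Rasd proteins, calls went in both directions. Of 17 measured genes 3 rose, 1 fell and 13 did not pass, where 7.80% of all genes passed. The median log2 difference was 0.08. With the replicate block 5 genes of this list changed, where 11.7% of all genes passed. Nos1, neuronal nitric oxide synthase, had levels of 7.62, 7.96 and 7.75 in the knockdown and 6.71, 6.85 and 6.74 in the control. The log2 difference was 1.01. Every knockdown array was above every control array. Gnai3, an inhibitory G protein subunit, rose by 0.80 and Mtor, the growth kinase, by 0.99, while Htt, huntingtin, had a log2 difference of -0.95. Nos1ap, the adaptor between Nos1 and Rasd1 and named after its values were seen, had a log2 difference of -0.05 and did not pass. Rap1gds1, a chaperone-like protein that binds Diras1, was also named after its values were seen. It had levels of 9.02 ± 0.34 against 9.66 ± 0.21 (SD, n = 3), a difference of -0.64 with an adjusted p by limma of 0.0779. Same-numbered samples differed by -0.49, -0.75 and -0.69, and its values under the alternatives were not read out here.

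Lipid anchoring was covered by 9 measured prenylation and CAAX processing genes. Of these 1 rose, 0 fell and 8 did not pass by limma, a share near the 7.80% of all genes, with a median log2 difference of -0.05. Zmpste24, a CAAX protease, had levels of 8.83, 8.86 and 8.74 in the knockdown and 8.16, 8.12 and 8.13 in the control, a difference of 0.67. Fdps, which makes the farnesyl donor, had a log2 difference of 0.69 with a limma adjusted p of 0.312. Under the replicate block that p was 0.00872, and 2 genes of the list then rose. Pde6d, a carrier of prenylated proteins, and Ggps1, which makes the geranylgeranyl donor, had differences of -0.19 and -0.25 and did not pass.

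Glucocorticoid-responsive genes were listed because Rasd1 is one. Of 15 measured 2 rose, 2 fell and 11 did not pass, where 7.80% of all genes passed. The median log2 difference was 0.12. Sult1a1, a sulfotransferase, rose by 1.02 on the log2 scale and Ddit4, an inhibitor of mTORC1, by 0.84. Sgk1, a serum- and glucocorticoid-induced kinase, fell by 0.95 and Fkbp5, a co-chaperone of the glucocorticoid receptor, by 0.69. Sult1a1 passed under all 15 alternatives. Fkbp5 did not without knockdown replicate 2 or 3 (adjusted p by limma 0.0595 each), nor Sgk1 without control replicate 2 (0.0598) or with RNA integrity in the model (0.0584). Ddit4 did not without knockdown replicate 1 (0.0544) or 2 (0.0833), control replicate 2 (0.0848) or with RNA integrity in the model (0.0841). The count of changed genes was 2 without knockdown replicate 2, control replicate 2 or with RNA integrity as a covariate. In that order, 3.37%, 3.11% and 3.42% of all genes passed.

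**Figure D4:**
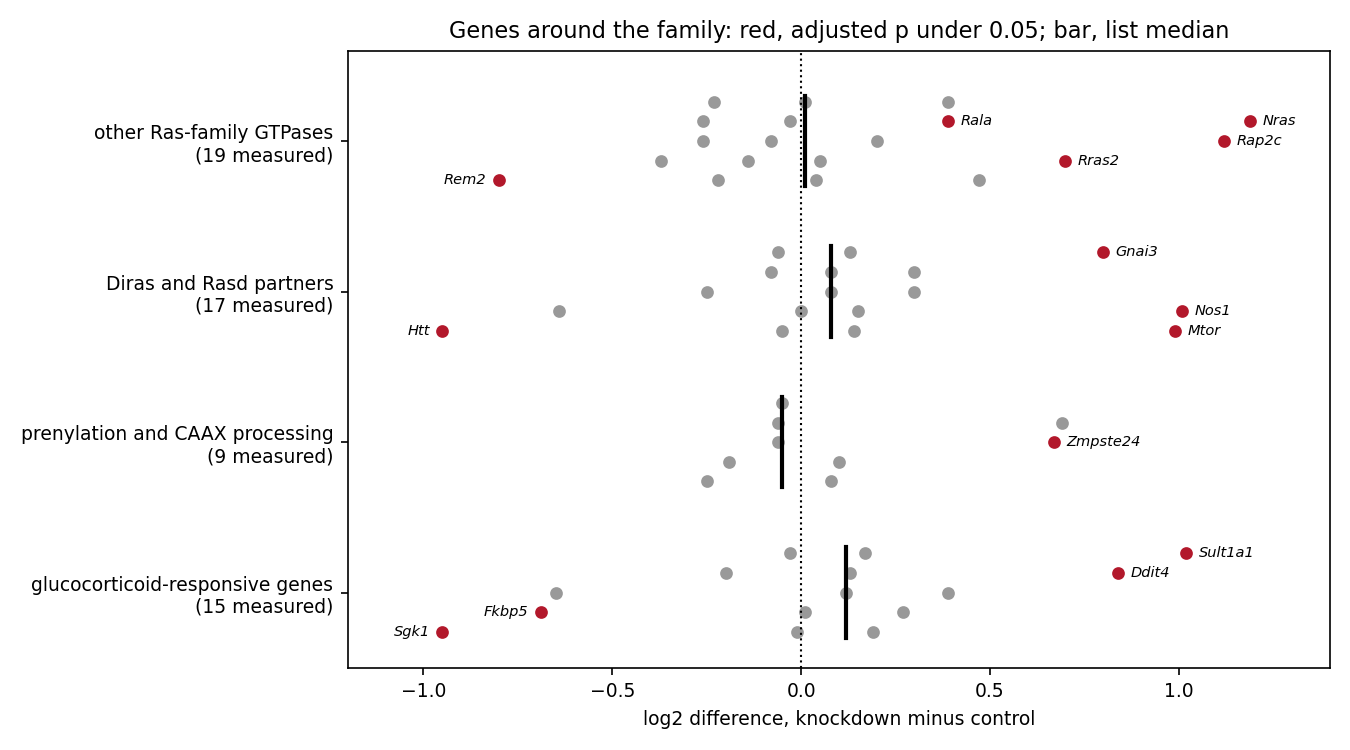
Log2 difference, knockdown minus control (x axis), of each measured gene in the 4 lists of related genes, 1 point per gene, with a black bar at the list median and red for an adjusted p under 0.05. Medians lie between -0.05 and 0.12, and genes that passed stand on both sides of 0 in 3 of the lists.

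Array medians ran from 4.03 to 4.11 over all probe sets, and correlations across genes were 0.988 to 0.995 within groups and 0.981 to 0.989 between them. Markers of excitatory hippocampal neurons did not pass in 8 of 8 measured genes, with a median log2 difference of 0.09. The vesicular glutamate transporter Slc17a7 had a mean level of 10.47 in the control. Markers of inhibitory neurons leaned lower with the knockdown. Of 9 measured, 1 (Lhx6) fell by the test, where 7.80% of all genes passed, 1 had a difference above 0 and the median was -0.52. Their summed levels, as log2, overlapped, at 11.86 to 12.84 in the knockdown and 12.44 to 13.66 in the control. These ranges do not use the pairing. Between same-numbered samples Sst, the brightest of these markers, differed by -0.85, -0.57 and -1.05. Gad1, the marker above 0, differed by 0.14, 0.11 and 0.09, and Dlx5 by 0.21, -0.19 and -0.36. Sst, Gad1 and Dlx5 were named after their values were seen. Among oligodendrocyte lineage markers 1 of 7 (Pdgfra) rose, with a median of 0.12 and summed levels of 9.48 to 10.64 against 9.59 to 9.92. The part of these cells in the changes of the family was not tested. No marker of striatal projection neurons (7 measured, median -0.12), astrocytes (8, -0.18) or microglia (7, -0.04) passed the unpaired test. Nor did any of endothelial cells (6, 0.00) or fibroblasts (6, 0.13). Marker calls were not recomputed with the replicate block or the other alternatives.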

How the data were processed

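Total RNA of 6 samples was amplified and biotin-labelled for Affymetrix arrays, per the labels' protocols. Per the submitters' processing notes, the authors ran RMA (Affymetrix Expression Console 1.2.1.20) to obtain the deposited log2 expression levels. RMA puts all arrays on one distribution, so a change common to most genes is hidden. No source used here gives the genome build.

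Of 41345 probe sets, 23521 carry 1 gene symbol, 1814 several and 16010 none. For 1082 genes with several probe sets the brightest was used. Entrez numbers matched 21994 genes to RefSeq on GRCm38.p6, and 0 symbols differed. Samples were grouped by their labelled titles. Knockdown minus control was fitted with limma 3.58.1 (lmFit and eBayes, R 4.3.3) across all genes, and the procedure was tested on simulated data. Exact permutation tests used scipy 1.17.1, and figures matplotlib 3.10.9. The members and lists were chosen with earlier results of these data known. The named genes were the 10 members, the 4 of each list with the smallest p and the 5 closest in pattern to Diras1 and to Diras2.

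Same-numbered samples deviated together from their group means, with correlations across genes of 0.43, 0.12 and 0.37 against -0.38 to 0.06 for other pairs. The same-numbered correlations were all over 0.1, so the numbers were read as pairs, from the data and not the labels. The main fit was unpaired, and only the replicate block used these pairs. The results of the members and the 4 lists, and the counts over all genes, were recomputed under 15 alternatives. These were the replicate block, RNA integrity as a covariate, leaving out each array, and leaving out dim genes. The others were median centring, quantile normalisation, array weights, an intensity trend with robust fitting, and all probe sets or their mean per gene. Marker and neighbour counts come from the main fit alone.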

Additional observations from a re-analysis of the deposited data

How the results depend on the processing

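With the replicate block 1 gene of the family rose and 2 prenylation genes changed, and over all genes 1252 fell in place of 807. It changed no other call of a member and moved no count of changed genes in the other lists by over 1.5 times. Counts of cell type markers and of chromosomal neighbours were not recomputed. Diras2 stayed lower under all alternatives, at -3.88 to -3.33 when each array was left out. The same 3 members, Diras2, Diras1 and Rasl11b, fell under each of the 15 alternatives. The count of changed other Ras-family GTPases was 8 without dim genes, 3 with RNA integrity in the model and 2 to 4 when each array was left out. Glucocorticoid-responsive genes numbered 2 with that covariate and 2 to 4 when each array was left out. Over all genes, 19.6% passed without dim genes, 3.42% with that covariate and 3.11% to 6.7% when each array was left out. The cause was not tested, except that fewer genes were tested without dim genes. That filter left out Rasl12 and Rasd1, which have no value there.

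Signs changed only where log2 differences were near 0. Rasd1 was 0.02 with quantile normalisation, 0.01 with median centring and 0.03 with array weights, and -0.06 to 0.07 when each array was left out. With RNA integrity as a covariate Rasl10a was -0.01 and Rasl11a 0.07. When each array was left out Rasl11a ran from -0.16 to 0.03 and Rasl12 from -0.01 to 0.18. None of these passed the test. With 3 arrays a group the 95% interval of an uncalled member spanned 0.47 log2 units for Rasl10b and 1.45 for Rerg.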

Other observations

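The genes next to the family members on their chromosomes, in the order of the RefSeq table and among the genes tested, were looked up after the values of the members were seen. Of 20 such neighbours 1 rose, 0 fell by limma and 19 did not pass, a share near the 7.80% called among all genes. The groups did not overlap for 6 of the 20, also near the 25.5% of all genes. The neighbour that rose was Gas2l1, beside Rasl10a, with a log2 difference of 0.68. Beside Diras1, which fell, Slc39a3, a zinc transporter, had levels of 7.50 ± 0.24 against 8.00 ± 0.12 (SD, n = 3), a difference of -0.49 with an adjusted p by limma of 0.0773, and Gng7, a G protein subunit, had -0.10. Beside Diras2 the neighbours 4921525O09Rik and Gm2848 had differences of 0.03 and 0.07. Beside Rasl11b, Dancr and Scfd2 had 0.05 and -0.09. Ptpro, a receptor phosphatase beside Rerg, had a difference of -0.63 with an adjusted p by limma of 0.0555, opposite in sign to Rerg.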
